A study of Ascodesmis nigricans with 6 samples.

Results

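In the cup fungus Ascodesmis nigricans, 80 genes had a staircase of transcript levels, low in vegetative mycelium, higher in sexual mycelium and higher again in protoapothecia. They were picked from 9622 gene models by their counts in the same 6 libraries that are described here. A member had at least 10 raw counts in both vegetative libraries. Its lower sexual library was at least 3 times its higher vegetative library, and its lower protoapothecia library was at least 3 but under 10 times its higher sexual library. These comparisons used CPM, each raw count as counts per 1000000 counts of its library. The 2 ratios, always the lower library of the higher tissue over the higher library of the lower tissue, are called the first and the second step. Since every library took part in the choice, the levels and steps are descriptions and were given no test.

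Ascodesmis nigricans is a filamentous ascomycete whose fruiting bodies are apothecia, open cups that bear the asci. In such fungi vegetative hyphae explore and feed on the substrate. When sexual development begins, specialised hyphae are wrapped by sterile hyphae into a young fruiting body, here the protoapothecium, in which new tissues differentiate. The comparison of these tissues asks which transcripts accompany that development.

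All libraries came from strain CBS 389.68, grown for 3 days at 25 °C on slides carrying a thin layer of rabbit food agar. The groups were total vegetative mycelium, total sexual mycelium and protoapothecia, with 2 biological replicates each, and all RNA was linearly amplified. Laser microdissection is labelled for the protoapothecia alone, so in the second step the tissue cannot be told apart from the way it was collected. The labels do not say how much of the total sexual mycelium consisted of young fruiting bodies, and in such bulk samples a smaller number of expressing cells and less RNA per cell cannot be told apart. Library totals ran from 11589777 to 12835772 counts. The files identify each gene model by a protein number and do not pair it with a name or product, so no function can be given for any member and no list of known developmental genes could be matched.

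The rule narrowed the genes in stages. Of the 9622 gene models, 6953 had at least 10 counts in both vegetative libraries and are called eligible below. The first step was met by 1073 of these, and both lower limits were met by 104, of which 24 exceeded the upper limit of the second step and 80 remained. The members were thus 0.831% of all gene models and 1.15% of the eligible ones. A further 294 genes met all limits on the steps but had under 10 counts in a vegetative library. The mirrored rule, with at least 10 counts in both protoapothecia libraries and the same folds downwards from vegetative over sexual mycelium to protoapothecia, was met by 20 genes.

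The members were scarce in vegetative mycelium. Their levels in vegetative replicate 1 ran from 0.857 to 80.5 CPM with a median of 2.87 CPM, and in vegetative replicate 2 from 0.857 to 80.6 CPM with a median of 3.31 CPM. In 59 of the 80 members both vegetative libraries were under 10 CPM. In sexual mycelium the members ran from 4.40 to 581 CPM with a median of 28.8 CPM in replicate 1, and from 4.68 to 1301 CPM with a median of 37.0 CPM in replicate 2. The sexual replicates were further apart in their highest values than the vegetative ones. In protoapothecia the range was 14.5 to 6347 CPM in replicate 1, with a median of 197 CPM, and 29.9 to 5457 CPM in replicate 2, with a median of 192 CPM. The medians of the replicates thus lay close together within each tissue and far apart between tissues, as the rule requires.

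**Figure D1:**
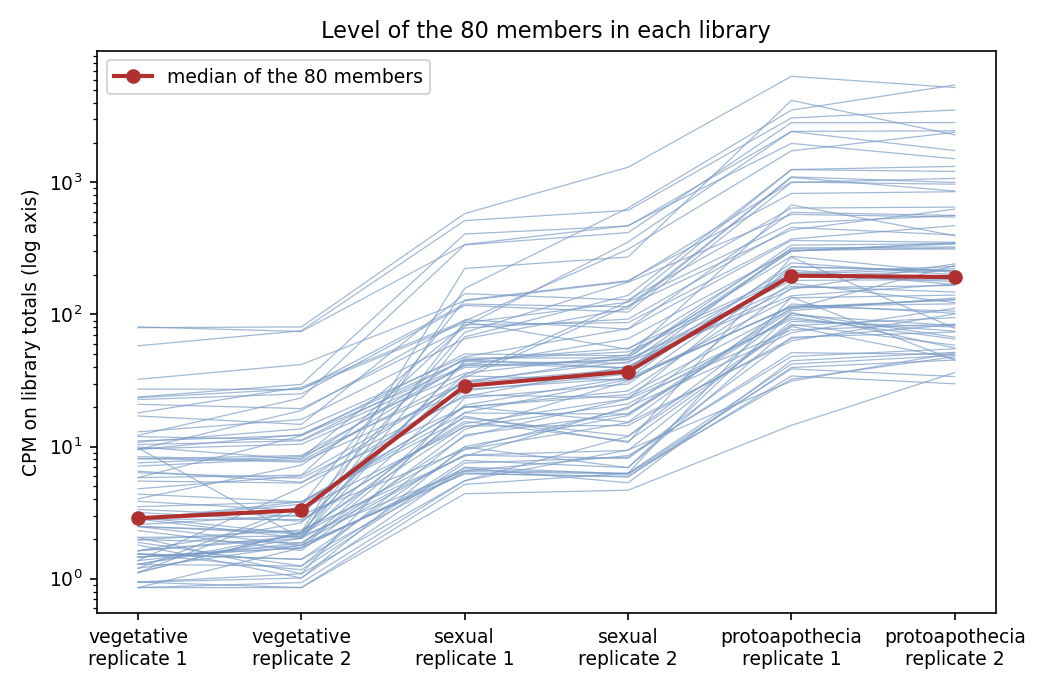
Levels of the 80 members in the 6 libraries, in CPM on library totals (log axis). Each thin line is 1 member and the thick line joins the medians, which run from 2.87 and 3.31 CPM in vegetative mycelium over 28.8 and 37.0 CPM in sexual mycelium to 197 and 192 CPM in protoapothecia.

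Together the members took 0.0687% and 0.0771% of all counts in the vegetative libraries. This share was 0.524% and 0.809% in the sexual libraries and 4.83% and 4.69% in the protoapothecia libraries. A small number of genes carried much of it: the 10 most abundant members held 61.4% of the members' summed mean CPM in protoapothecia. Both protoapothecia libraries exceeded 1000 CPM in 11 members and were under 100 CPM in 20. Ranked by CPM per kilobase of mRNA among all gene models, no member was among the 1000 highest in either vegetative library, and the highest-ranked member there stood at 1235. In the sexual libraries 5 and 7 members were among the 1000 highest, and in the protoapothecia libraries 40 and 38. The median rank of the members was 6004 and 6031 in vegetative, 4388 and 4138 in sexual and 1032 and 1040 in protoapothecia libraries.

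By the rule's measure, the first step had a median of 4.76-fold and an interquartile range of 3.62 to 6.58-fold. The second step had a median of 4.86-fold and an interquartile range of 3.85 to 6.53-fold. On library totals the steps were therefore of similar height in the typical member, and the first was the larger in 39 members and the second in 41. Both steps had the same minimum of 3-fold, so this similarity may follow in part from the rule. The first step had no upper limit and ran up to 98.7-fold, whereas the second was capped by the rule and reached 9.66-fold. Taken singly, each step was low in most members: 43 had a first step under 5-fold and 42 a second step under 5-fold. These were not always the same members. The whole rise, from the higher vegetative to the lower protoapothecia library, ran from 12.6-fold to 1673-fold with a median of 32.3-fold. It was 100-fold or more in 12 members and under 20-fold in 17. Across the 80 members, the log2 ratios of group means for the 2 steps had a Pearson correlation of 0.23 and a Spearman correlation of 0.11. Both ratios share the sexual libraries and both were bounded by the rule, so these values describe the set only.

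**Figure D2:**
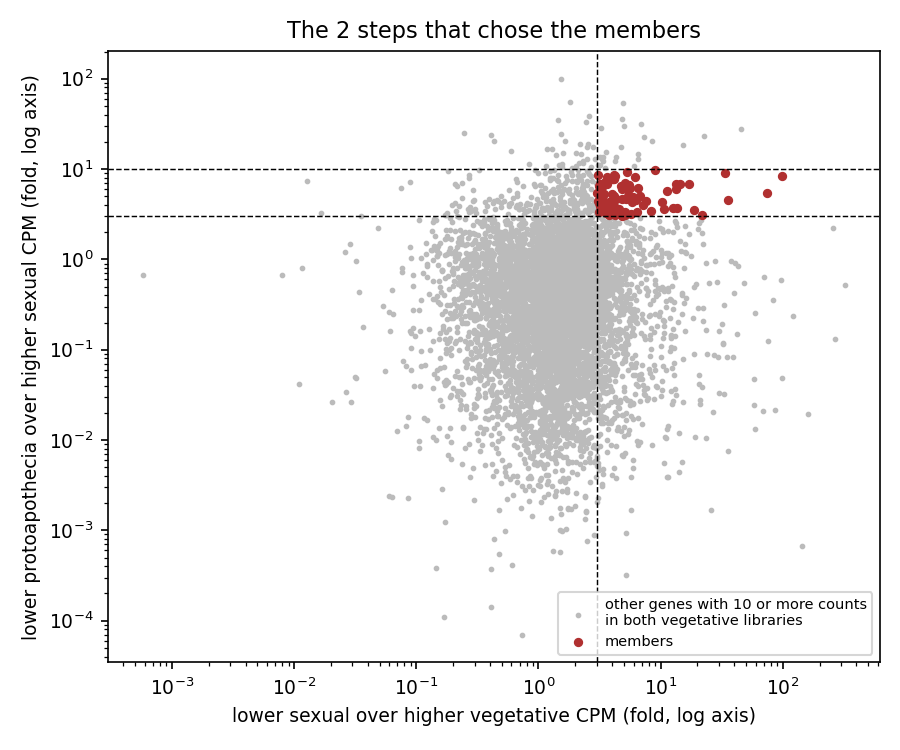
The first step (x axis, fold) against the second step (y axis, fold) for eligible genes with a ratio above 0, on log axes, with dashed lines at the limits of 3 and 10. The 80 members (dark red) fill the part between the lines, crowd near 3-fold on the x axis and trail out to 98.7-fold.

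The height of each step depended on how the libraries were scaled. On library totals the typical gene itself moved: over the tested genes with counts in both tissues, the median log2 ratio was 1.07 for sexual over vegetative mycelium (8483 genes) and -0.75 for protoapothecia over sexual mycelium (8766 genes). The members' median log2 ratio of group means was 2.68 for the first and 2.69 for the second comparison. Relative to the median tested gene, the members were thus higher by 1.61 on the log2 scale in sexual over vegetative mycelium and by 3.44 in protoapothecia over sexual mycelium. With TMM factors (a trimmed mean of the log ratios between libraries), which assume that most genes do not change, the members' medians became 1.95 and 3.32. With median-of-ratios (RLE) size factors they became 1.71 and 3.63, and with upper-quartile factors 1.92 and 3.02. The similar height of the 2 steps thus held on library totals, on which the rule chose the members, and not for the same genes under the other scalings. The rule set the same 3-fold minimum under both steps, so the similarity may follow in part from the rule. The step heights of genes chosen under another scaling are not given here. A scaling multiplies every gene of a library by the same factor, so the distance between the members and the median gene stays nearly fixed by construction. The order of the tissues was set by the rule, and the shifts between these scalings were too small to turn it in any member. The lowest first step of any member was 3.03-fold on library totals and 1.54-fold with RLE factors, not in the same member.

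**Figure D3:**
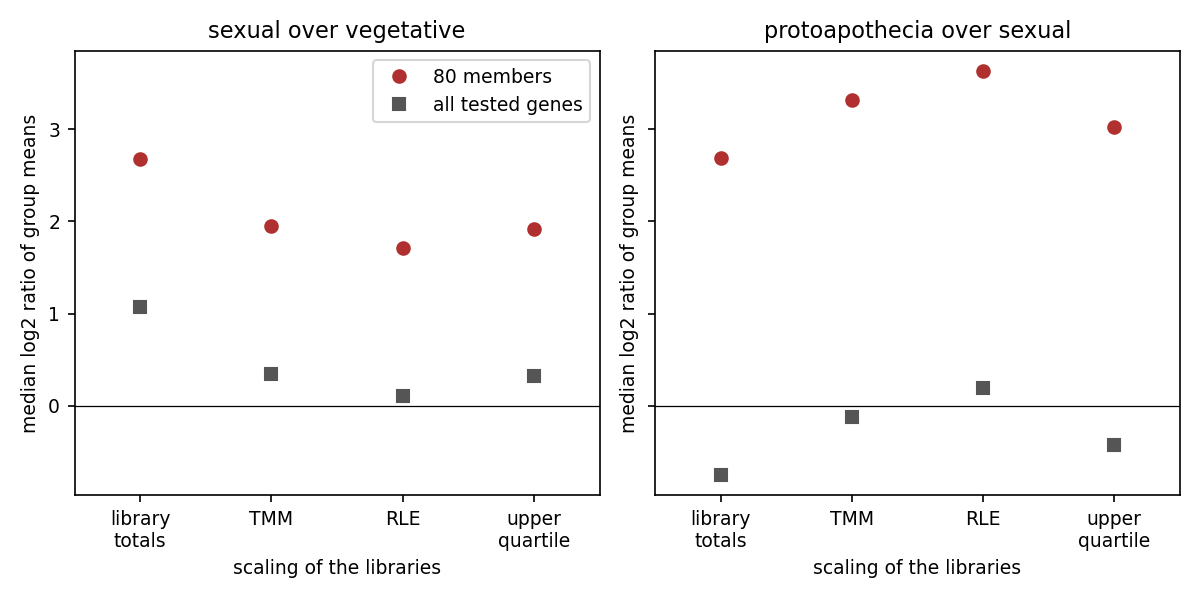
Median log2 ratio of group means under 4 scalings of the libraries, for sexual over vegetative mycelium (left) and protoapothecia over sexual mycelium (right). Circles are the 80 members and squares are all tested genes with counts in both tissues. Both move together by construction, and the members' medians run from 1.71 to 2.68 on the left and from 2.69 to 3.63 on the right.

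Membership itself moved with the scaling. Applied to TMM-scaled CPM, the rule chose 57 genes, of which 28 were among the 80, or 35.0% of the members and 49.1% of the 57. With TMM factors 42 members fell under 3-fold in the first step and 20 reached 10-fold or more in the second, 10 of them both. With RLE factors the rule chose 46 genes and shared 16 of them with the members. In the authors' deposited table the DESeq ratios of the members had a median of 3.21 for sexual over vegetative mycelium, with a range of 1.84 to 95.2. The authors' deposited table gave the second comparison, protoapothecia over sexual mycelium, a median of 12.2 and a range of 6.33 to 28.5. The deposited DESeq ratios of the members differed from the ratios of mean CPM by a nearly constant amount, with a median log2 difference of -0.99 for the first comparison (range -1.17 to -0.96) and 0.92 for the second (range 0.82 to 0.93). By the authors' deposited table, 37 members were under a ratio of 3 in sexual over vegetative mycelium and 56 were at a ratio of 10 or more in protoapothecia over sexual mycelium.

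All 80 members passed the filter on low counts, which kept 8861 genes. In edgeR's quasi-likelihood test on TMM-scaled counts (all 6 libraries, Benjamini-Hochberg adjusted p under 0.05), 79 members were called higher in sexual than in vegetative mycelium, where 30.7% of all tested genes were called higher. In protoapothecia against sexual mycelium 80 members were called higher (30.7% of all tested genes), and in protoapothecia against vegetative mycelium 80 (39.8%). The authors' deposited table had a DESeq adjusted p under 0.05 and a higher level in sexual mycelium for 74 members (26.6% of the 9076 genes with any adjusted p). It had the same for all 80 in protoapothecia against sexual (33.8%) and against vegetative mycelium (38.9%). The deposited adjusted p-values are rounded, and members printed at exactly 0.05 were not counted. The rule chose the members on these same contrasts, so nothing is read from these counts. The member that edgeR did not call had an mRNA of 2709 bases, with 17 and 22 counts in the vegetative libraries, 77 and 78 in the sexual and 1600 and 572 in the protoapothecia libraries.

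The members with the largest first steps were also among the most abundant in protoapothecia. The largest belonged to proteinId343655, with an mRNA of 495 bases, which was at 1.11 and 2.26 CPM in vegetative mycelium, 223 and 272 CPM in sexual mycelium and 4174 and 2288 CPM in protoapothecia. Its first step was 98.7-fold and its second 8.40-fold. Its vegetative level rests on 13 and 29 counts. The pooled ratio of sexual over vegetative libraries was 145. Its 95% exact (Clopper-Pearson) counting interval was 107 to 201, which leaves out the spread between replicates. Per length it had the highest mean level of all members in protoapothecia, at 8432 and 4623 CPM per kilobase. The next first step, 74.9-fold, was that of proteinId398354, with an mRNA of 1312 bases. It was at 1.63 and 2.10 CPM in vegetative mycelium, 158 and 640 CPM in sexual mycelium and 3518 and 5457 CPM in protoapothecia. Its sexual replicates were 4.06-fold apart, so the size of both its steps is known less well than that of its whole rise, which at 1673-fold was the largest of the members. The third largest rise, 617-fold, belonged to a gene of 2482 bases with 15 and 26 counts in the vegetative and 14740 and 16739 counts in the protoapothecia libraries.

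In 15 members the first step was 10-fold or more. Their median level was 2.37 CPM in vegetative mycelium (range of means 1.57 to 26.7 CPM), against 3.56 CPM in the 65 other members. In sexual mycelium the medians were 104 and 23.1 CPM, and in protoapothecia 560 and 154 CPM. The lower vegetative and higher sexual medians follow from the split itself, which used their ratio. The 15 genes held 41.7% of the members' summed mean CPM in protoapothecia. The rule held every second step between 3 and 10-fold, which ties the protoapothecia level to the sexual one. The higher protoapothecia median and the share of the 15 genes therefore follow in part from the split too. Their second step had a median of 5.50-fold, against 4.81-fold in the others. This split by the first step was made after the values were seen and has no test.

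The largest second steps lie just under the upper limit. The highest, 9.66-fold, was that of proteinId312267, with an mRNA of 1356 bases, at 3.86 and 3.27 CPM in vegetative mycelium, 34.9 and 125 CPM in sexual mycelium and 1247 and 1210 CPM in protoapothecia. Its sexual replicates were 3.59-fold apart while its protoapothecia replicates differed by 1.03-fold. Its ratio of pooled counts was 15.1, with a counting interval of 14.4 to 15.8 that leaves out this replicate spread. The pooled ratio was therefore above the limit that its second step stayed under. The next, 9.26-fold, was that of proteinId341296, with an mRNA of 760 bases, at 2.83 and 2.80 CPM in vegetative, 14.9 and 23.1 CPM in sexual mycelium and 229 and 214 CPM in protoapothecia. In 13 members the pooled ratio of protoapothecia over sexual mycelium was 10 or more, because the rule compares the nearest libraries and not the means.

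At the other end stood the member with the smallest rise, a gene of 1475 bases. It was at 8.40 and 7.79 CPM in vegetative mycelium, 34.3 and 31.9 CPM in sexual mycelium and 115 and 106 CPM in protoapothecia, a rise of 12.6-fold. Its replicates were also the closest of all members, at most 1.09-fold apart in any tissue, so its 2 moderate steps were large beside its spread. The next smallest rise, 13.4-fold, was that of a gene of 2139 bases at 10.4 and 11.1, 39.7 and 45.4, and 164 and 148 CPM in the 3 tissues. The second most abundant member per length in protoapothecia, a gene of 939 bases, already had one of the highest levels of the members in the mycelia. It was at 79.4 and 80.6 CPM in vegetative mycelium, 581 and 1301 CPM in sexual mycelium and 6347 and 5223 CPM in protoapothecia, a rise of 64.8-fold. The lowest mean level per length in protoapothecia, 25.6 and 23.2 CPM per kilobase, was that of a gene of 3464 bases.

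The order of the members by level was similar in sexual mycelium and protoapothecia. Over the 80 members, mean CPM per kilobase had a Spearman correlation of 0.95 between these tissues, 0.64 between vegetative and sexual mycelium and 0.59 between vegetative mycelium and protoapothecia. Over the 6759 eligible genes with counts in every library the same values were 0.59, 0.82 and 0.48. The limits of 3 and 10-fold on the second step hold the members near a line between sexual mycelium and protoapothecia, and no limit of that kind was set on the first step, so the order of these correlations follows in part from the rule.

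**Figure D4:**
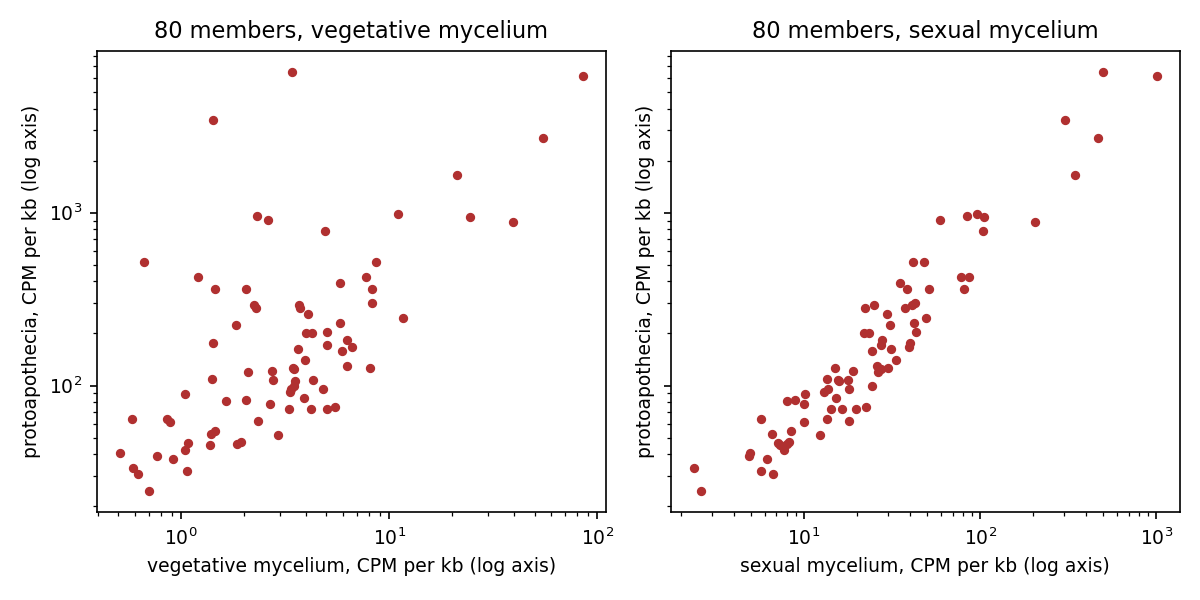
Mean CPM per kilobase of mRNA of the 80 members in protoapothecia (y axis) against vegetative mycelium (left) and sexual mycelium (right), on log axes. Points lie along a narrow band on the right (Spearman correlation 0.95) and scatter on the left (0.59).

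The direction of the difference between replicates was not used by the rule, which treats both libraries of a tissue alike. In sexual mycelium 12 members were at least 2-fold higher in replicate 2 and 0 were at least 2-fold higher in replicate 1. Over the 6953 eligible genes these numbers were 350 and 308. The share at least 2-fold higher in sexual replicate 2 was 15.0% of the members and 5.03% of the eligible genes. The 12 genes had sexual replicate 2 over replicate 1 ratios from 2.03 to 4.36 with a median of 2.38. They included 5 of the 10 most abundant members in protoapothecia and had a median of 894 CPM there, against 179 CPM in the other 68 members. A gene with a wide sexual pair meets both steps only if its whole rise is larger. Their higher level in protoapothecia may therefore follow in part from the rule. The most divergent, a gene of 2567 bases, was at 81.2 and 354 CPM in the sexual libraries but at 5.83 and 6.08 CPM in the vegetative and 2432 and 2456 CPM in the protoapothecia libraries.

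The same count was made in other genes that were higher in protoapothecia than in sexual mycelium. Of the 294 genes that met the limits on both steps but had under 10 counts in a vegetative library, 93, or 31.6%, were at least 2-fold higher in sexual replicate 2 and 19 in replicate 1, against 15.0% and 0 of the members. Their median level in sexual mycelium was 4.59 CPM, against 32.7 CPM in the members. Of the 24 genes that exceeded the upper limit of the second step, 0 were 2-fold or more apart in sexual mycelium. The second step divides by the higher sexual library, so a gene with a wide sexual pair more easily stays under that limit. This count may therefore follow in part from the rule. Among the 292 eligible genes with a second step of at least 3-fold that were not members, 16 were at least 2-fold higher in sexual replicate 2 and 10 in replicate 1. An excess of genes higher in sexual replicate 2 was thus also seen in the 294 genes of lower level, 93 against 19. In the 292 genes the counts lay closer, 16 against 10, and in the 24 genes there were none. The differences between gene sets were not tested. Without sexual replicate 2, 15 members no longer met the rule, all because their second step then reached 10-fold or more, and 65 still did. The share of the sexual libraries taken by the members was 0.408% and 0.484% without the 12 genes, against 0.524% and 0.809% with them.

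**Figure D5:**
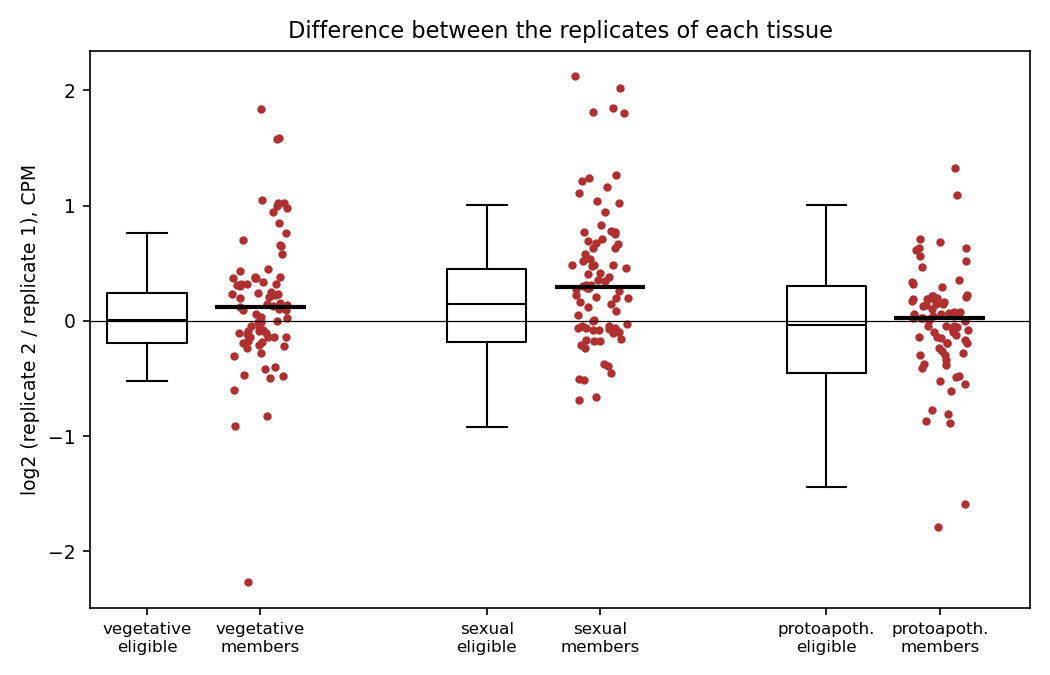
Log2 ratio of replicate 2 over replicate 1 in each tissue, for the eligible genes with counts in both libraries (boxes, quartiles with whiskers at the 5th and 95th percentile) and the 80 members (points, thick line at the median). In sexual mycelium the members have a median of 0.30 against 0.15 for the eligible genes, and 12 members lie at 1 or above while none lies at -1 or below.

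The size of the replicate difference is in part shaped by the rule, since a wide pair shortens a step. In sexual mycelium the members' median absolute log2 difference was 0.39, against 0.34 in the eligible genes, and in vegetative mycelium it was 0.24 against 0.21. In protoapothecia it was 0.20 against 0.37. The members' replicates were thus further apart than those of the eligible genes in both mycelia and closer in protoapothecia, a difference that was not tested. The sets also differed in level. The members' median was 3.15 CPM in vegetative mycelium, 32.7 CPM in sexual mycelium and 191 CPM in protoapothecia. The eligible genes had medians of 24.6, 45.1 and 21.4 CPM. The sets were not matched for level, so its part in the replicate differences was not tested. In protoapothecia 4 members, or 5.0%, were at least 2-fold apart, against 14.9% of the eligible genes, most of all a gene of 625 bases at 272 and 78.6 CPM. In vegetative mycelium 8 members, or 10%, were, against 3.62% of the eligible genes, most of all a gene of 1500 bases at 9.77 and 2.03 CPM. The latter comes from 114 and 26 counts.

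Depth limited the first step more than the second. A vegetative library had under 20 counts in 28 members, and both had under 50 counts in 44. A single count of 10 has a 95% exact Poisson interval of 4.80 to 18.4. The counting interval of the pooled sexual over vegetative ratio reached under 3 in 6 members, whereas that of protoapothecia over sexual mycelium did so in 0. Such intervals hold counting error alone; amplification copies molecules, so reads are not independent.

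The mRNA models of the members, whose length the rule did not use, had a median of 1340 bases (range 317 to 6243 bases), against 1449 bases for the eligible genes and 1230 bases for all gene models. Models under 1000 bases made up 30.0% of the members and 27.4% of the eligible genes, and those over 3000 bases 12.5% and 10.7%. The members were thus close to the eligible genes in length. The 24 genes above the upper limit of the second step had a median of 868 bases, with 14 of them under 1000 bases, and the 969 genes that met the first step but fell under 3-fold in the second had a median of 1560 bases. None of these differences in length was tested. The longest members, of 6243 and 5145 bases, had rises of 23.1-fold and 19.9-fold. The shortest, of 317 and 337 bases, had rises of 36.0-fold and 16.7-fold. The largest rises were not among these, but another short member, of 495 bases, rose 1013-fold. Over the members, length had a Spearman correlation of -0.10 with the first step and -0.13 with the mean CPM per kilobase in protoapothecia.

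Genes lay closely on both sides of most limits of the rule. The members nearest to the limit of the first step were at 3.03-fold and 3.05-fold, and the nearest genes outside it were at 2.996-fold and 2.985-fold. At the lower limit of the second step the nearest members were at 3.04-fold and 3.10-fold and the nearest others at 2.97-fold and 2.91-fold. At its upper limit, members at 9.66-fold and 9.26-fold faced genes at 10.2-fold and 10.9-fold. At the count minimum, the nearest members had 10 counts in a vegetative library and the nearest others had 9. The edges of the set are therefore set by the rule and not by a gap in the data.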

How the data were processed

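RNA sequencing counts of 6 libraries in 3 groups were analysed. The authors deposited raw counts per gene model with the mRNA length, per the file headers; the aligner, counter, annotation and strand setting used are not given in the sources at hand. The same deposited table holds the authors' DESeq ratios (linear fold) and adjusted p-values rounded by the authors; the submitters' processing notes name DESeq and no version. Columns were matched to libraries by title. CPM is the count divided by the library total, times 1000000. Groups were compared with edgeR 4.0.16 (limma 3.58.1, R 4.3.3): filterByExpr, TMM, robust quasi-likelihood fit of all 6 libraries by group, two-sided, Benjamini-Hochberg adjusted p under 0.05 over 8861 genes. DESeq2 1.42.0, other scalings, no filter, a replicate block, other limits of the rule and leaving out libraries were alternatives. Figures used matplotlib 3.10.9.

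The members, lists and named genes were chosen with earlier results of these data known. Identifiers are printed for the 2 largest first and second steps; other genes are given by rank and length. That rule covers extremes of level per length, rise, length and replicate difference, and the genes nearest each limit. The member not called by edgeR, the 15 with a large first step and the 12 that differ between sexual replicates were picked after their values were seen. A list of known fruiting body genes was not used, since identifiers could not be paired with names. Replicates are labelled as independent biological ones.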

Additional observations from a re-analysis of the deposited data

How the results depend on the processing

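The number of genes chosen by the rule, 80, became 57 with TMM, 46 with RLE and 44 with upper-quartile effective library sizes, of which 28, 16 and 34 were among the 80. It became 214 with a vegetative minimum of 1 count, 52 with a minimum of 20 counts, 149 when group means were compared, 131 with steps of at least 2.5-fold, 39 with steps of at least 4-fold and 104 with no upper limit on the second step. Leaving out 1 library gave 85 to 111 genes. The rule compares the nearest libraries of 2 tissues, so fewer libraries make its 3-fold limits easier to meet by construction. Of the 80 members, 65 still met the rule without sexual replicate 2 and 74 without protoapothecia replicate 2. All 80 did without any other single library. The members' median log2 ratio of sexual over vegetative mycelium, 2.68, became 1.95 with TMM, 1.71 with RLE and 1.92 with upper-quartile factors, and 2.51 to 2.81 without 1 library. That of protoapothecia over sexual mycelium, 2.69, became 3.32, 3.63 and 3.02, and 2.56 to 2.92 without 1 library. Of the 80 members, 79 were called higher in sexual than in vegetative mycelium, as were 30.7% of all tested genes. The alternatives that kept all 6 libraries called 70 to 80 members and 25.6% to 53.7% of all tested genes. In both comparisons with protoapothecia they called 80 members. The share of all tested genes was then 20.8% to 36.1% against sexual and 36.1% to 41.2% against vegetative mycelium. With the replicate number as a block 78, 80 and 80 members were called, beside 27.8%, 29.2% and 38.5% of all tested genes. The rule chose the members on these contrasts, so nothing is read from these counts. The labels do not say that a number pairs samples, and the replicate differences of sexual and vegetative mycelium had a correlation of -0.16 across 8861 genes, those of the other pairs of tissues 0.0368 and -0.0298. Fits that leave 1 library in a group assume that it varies like the other groups, so their counts of calls are not given.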
